A study of Sus scrofa with 12 samples.

Results

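TNNC2, MYBPC2 and CASQ1 are 3 genes whose products mark fast skeletal muscle fibers, and their levels were followed through fetal pig muscle development under a normal and a restricted maternal diet. They were chosen by name, with earlier results of these data known, by matching pig Ensembl gene identifiers to gene symbols. They make up 3 of the 19158 gene rows of the deposited expression tables. Their identifiers are ENSSSCG00000007424 for TNNC2, ENSSSCG00000003218 for MYBPC2 and ENSSSCG00000006390 for CASQ1. The muscle was the longissimus, the long muscle of the back, from fetuses of second-parity Large White sows mated with a boar of that breed. Sows received a normal diet (NE) or, from mating onward, an energy-restricted diet (RE), and fetuses were taken at 35, 55 or 90 days of gestation (dg). Polyadenylated RNA was sequenced as 1 library for each diet and stage, which gives the libraries NE35, RE35, NE55, RE55, NE90 and RE90. A fetus of near-average weight was picked from each of several sows per group, and the sources used here do not say whether a library holds pooled fetuses.

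Skeletal muscle fibers contract at different speeds because they use different members of the same protein families. Troponin C is the calcium sensor of the thin filament, and TNNC2 encodes the form of fast fibers whereas TNNC1 encodes the form of slow fibers and heart. MYBPC2 encodes the fast form of myosin-binding protein C, a thick filament protein that adjusts how myosin heads reach actin, and MYBPC1 encodes the slow form. CASQ1 encodes the calsequestrin that stores calcium inside the sarcoplasmic reticulum and is most abundant in fast fibers. In pigs a first wave of primary fibers is followed by secondary fibers that form around them, and most secondary fibers later become fast.

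Total counts ranged from 11091317 to 12985505 per library, and the lowest count of any of the 3 genes in a library was 37. All 19 genes with a row among 26 sarcomere genes listed as shared between fiber types had reads in every library. Markers of the labelled tissue were thus present throughout. NE35 also held kidney transcripts: 13 genes of a kidney list summed to 651 CPM (counts scaled to a common library size) there and to between 5.84 and 13.6 CPM elsewhere. CPM values were scaled by the trimmed mean of M-values (TMM), with factors from 0.763 in NE90 to 1.26 in NE35. Scaling by total counts alone shifts every log2 ratio of 90 against 35 dg by −0.72 in NE and by −0.25 in RE. It shifts every RE to NE log2 ratio by −0.14 at 35 dg, 0.06 at 55 dg and 0.33 at 90 dg.

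TNNC2 was one of the most abundant transcripts of this muscle at every stage. At 35 dg it had 32814 counts in NE and 61955 in RE, at 55 dg 137762 in NE and 161133 in RE, and at 90 dg 368235 in NE and 257649 in RE. These counts made up 0.296% of all reads in NE35 and 2.88% in NE90. In RPKM, reads scaled to gene model length and to library size, TNNC2 ranked 20 of all genes in NE35, 9 in RE35 and 2 in each of the other 4 libraries. Both 35 dg libraries lay lowest and both 90 dg libraries highest, and the stages did not overlap.

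MYBPC2 was the rarest of the 3. NE fetuses gave 77 counts at 35 dg, 871 at 55 dg and 3936 at 90 dg, and RE fetuses 37, 53 and 3522 at the same stages. On the TMM scale these are levels of 5.53, 81.7 and 403 CPM in NE and of 2.77, 4.09 and 312 CPM in RE. RE55 thus stood with the 35 dg libraries, whereas NE55 stood between them and the 90 dg libraries. The share of reads in RE55 had a 95% binomial interval (Wilson) of 0.000312% to 0.000534%, which overlaps that of RE35 (0.000229% to 0.000435%) but not that of NE35 (0.000556% to 0.000868%). Such intervals cover counting error only.

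CASQ1 lay between the other 2 genes. It had 355 counts in NE and 617 in RE at 35 dg, 6551 in NE and 3510 in RE at 55 dg, and 21948 in NE and 18043 in RE at 90 dg. Its RPKM rank moved from 4055 in NE35 and 2540 in RE35 to 208 in NE55 and 469 in RE55, and to 108 in NE90 and 95 in RE90. The stages did not overlap, and within 55 dg and within 90 dg the NE library was the higher.

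Compared per length, the 3 genes kept 1 order in every library. In NE90 the RPKM was 37613.8 for TNNC2, 878 for CASQ1 and 39.8 for MYBPC2. In RE55 it was 15485.8 for TNNC2, 132 for CASQ1 and 0.50 for MYBPC2.

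**Figure D1:**
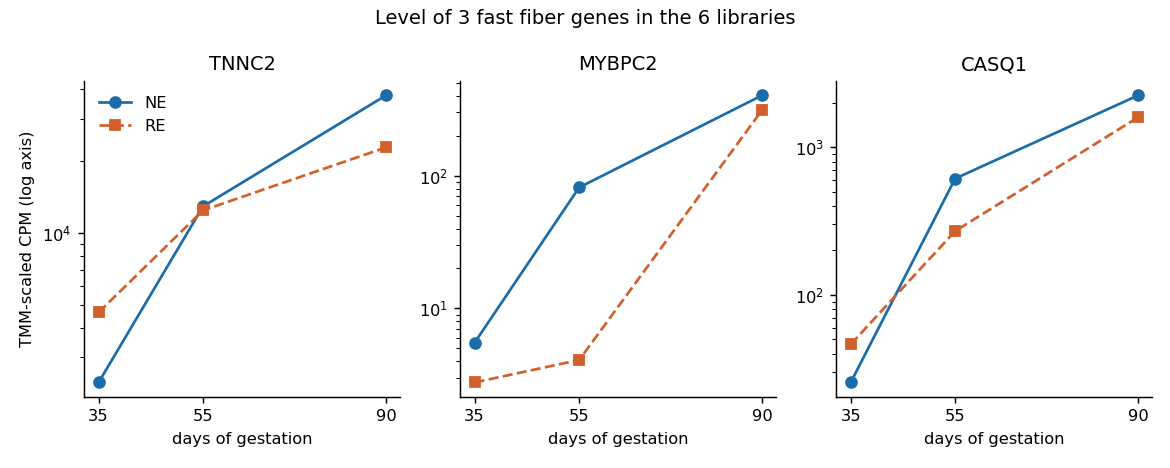
TMM-scaled CPM (log axis) of TNNC2, MYBPC2 and CASQ1 against days of gestation, with 1 point per library, NE as circles and RE as squares. MYBPC2 in RE55 (4.09 CPM) sits beside the 35 dg libraries, while the diets nearly meet for TNNC2 at 55 dg (12917 CPM in NE55 and 12426 in RE55).

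The first question is how the genes changed with stage. All 3 rose from 35 to 90 dg, and CASQ1 alone also passed the test from 35 to 55 dg. The test was the quasi-likelihood test of edgeR over 12872 genes, with diet as a covariate, so the 2 diets served as the replicates of a stage. Because it is not stated whether fetuses were pooled in a library, its p-values measure only the spread between these libraries. In bulk tissue, a lower level from fewer fast fibers and one from less RNA per fiber cannot be told apart.

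From 35 to 90 dg the log2 fold change of TNNC2 was 3.13 ± 0.69 (SE), an 8.77-fold rise, with an edgeR adjusted p of 0.0200. MYBPC2 rose by 6.66 ± 0.87 on the log2 scale, a 101-fold rise, with an edgeR adjusted p of 0.00153. CASQ1 rose by 5.68 ± 0.63, a 51.4-fold rise, with an edgeR adjusted p of 0.000727. All 3 members thus passed, beside 3.87% of all genes tested that were called higher. Since the members were chosen with earlier results of these data known, that share is given as a description only. Each was higher at 90 than at 35 dg within NE and within RE. By log2 fold change MYBPC2 ranked 12 from the top, CASQ1 24 and TNNC2 160. Without NE35, the library with kidney transcripts, the value of TNNC2 was 2.51 and its edgeR adjusted p 0.336, and it did not pass in DESeq2 (adjusted p 0.0829) or limma (0.0717), while MYBPC2 and CASQ1 passed without any 1 of the 6 libraries. Genes called numbered 498 higher and 435 lower, and 332 higher and 1138 lower when scaled by total counts.

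From 35 to 55 dg CASQ1 rose by 3.53 ± 0.58 on the log2 scale, an 11.6-fold rise, with an edgeR adjusted p of 0.0109, against a background of 1.15% of genes called higher. Without NE35 the value was 2.73 and the edgeR adjusted p 0.222. TNNC2 had a log2 fold change of 1.87 ± 0.65 (edgeR adjusted p = 0.218) and MYBPC2 one of 2.73 ± 0.80 (edgeR adjusted p = 0.126), and neither passed. The MYBPC2 value averages unlike diets, since it was 0.36 without NE55 and 4.04 without RE55. In both fits 55 dg holds 1 library, which is taken up by its own stage term, so the spread at 55 dg is not measured. Genes called numbered 148 higher and 104 lower, and 133 higher and 214 lower when scaled by total counts.

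From 55 to 90 dg the quasi-likelihood test of edgeR called 0 genes, 0% in either direction, and the Wald test of DESeq2 gave 32 higher and 16 lower. The unadjusted edgeR p was under 0.05 for 676 of 12872 genes, about the number this cutoff would pass if no gene differed. The log2 fold changes were 1.26 ± 0.64 for TNNC2, 3.92 ± 0.80 for MYBPC2 and 2.15 ± 0.53 for CASQ1, with edgeR adjusted p of 0.960, 0.367 and 0.476. MYBPC2 ranked 11 of 12872 by p. It passed in edgeR when any 1 library was left out, at values from 2.50 to 6.13, and those fits rest on 1 residual degree of freedom.

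**Figure D2:**
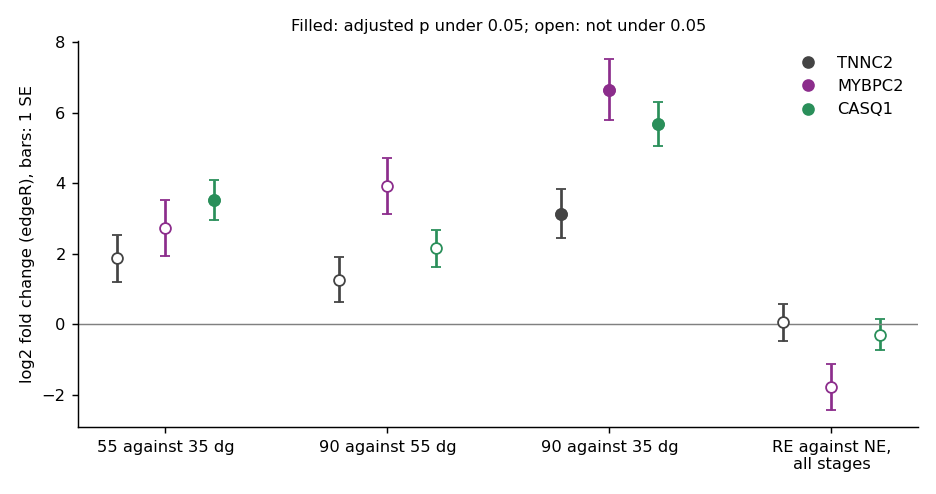
Log2 fold change from edgeR (y axis, bars 1 SE) of TNNC2, MYBPC2 and CASQ1 for 3 stage comparisons and for RE against NE over all stages. Filled points passed an adjusted p under 0.05: all 3 genes for 90 against 35 dg and CASQ1 for 55 against 35 dg.

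Within each diet the timing differed between genes, as read from single libraries that allow no test. A gene was counted as higher or lower when its CPM differed more than 2-fold, and 95% counting intervals follow the log2 ratios in the next sentences. In NE all 3 members were more than 2-fold higher in both intervals, where 14.6% of all genes were from 35 to 55 dg and 8.86% from 55 to 90 dg. MYBPC2 in NE had a log2 ratio of 3.85 (3.55 to 4.24) from 35 to 55 dg and of 2.30 (2.20 to 2.41) from 55 to 90 dg. In RE it had 0.54 (−0.07 to 1.21) and then 6.20 (5.86 to 6.67). The second value, a 73.4-fold difference, ranked 2 from the highest of 12578 genes.

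CASQ1 had a log2 ratio of 4.58 (4.44 to 4.75) from NE35 to NE55 and of 1.87 (1.83 to 1.91) from NE55 to NE90. In RE the ratios were 2.55 (2.43 to 2.68) and 2.56 (2.51 to 2.61). On the log2 scale most of the CASQ1 difference thus lay before 55 dg in NE, and it was spread evenly over both intervals in RE. In CPM the larger step came after 55 dg in both diets, with 25.5, 614 and 2250 CPM in NE and 46.2, 271 and 1599 in RE.

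TNNC2 had 2.46 (2.44 to 2.47) and then 1.55 (1.54 to 1.56) in NE, and 1.42 (1.41 to 1.44) and then 0.88 (0.87 to 0.89) in RE. In RE, 2 of 3 members were more than 2-fold higher in each interval, TNNC2 and CASQ1 before 55 dg and MYBPC2 and CASQ1 after it. The background was 7.29% of genes before 55 dg and 9.94% after it. Over the whole span all 3 were more than 2-fold higher in both diets, beside 11.7% of genes in NE and 12.7% in RE. The 90 to 35 dg fold was 16.03 in NE and 4.93 in RE for TNNC2, 87.7 and 34.5 for CASQ1, and 70.9 and 106 for MYBPC2. Whether these spans differ between the diets was not tested, since each rests on 1 library per point, and the NE spans start from the library that holds kidney transcripts.

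The second question is how the restricted diet related to these genes. Over all 3 stages, with stage as a block, none of the 3 passed the quasi-likelihood test of edgeR. The log2 fold change of RE against NE was 0.06 ± 0.53 for TNNC2, −1.78 ± 0.65 for MYBPC2 and −0.29 ± 0.44 for CASQ1, each with an edgeR adjusted p of 0.999. No gene was called (0% in either direction), and the Wald test of DESeq2 gave 1 higher and 2 lower. The unadjusted edgeR p was under 0.05 for 301 of 12872 genes. That is fewer than this cutoff would pass if no gene differed and p-values were evenly spread. MYBPC2 had an unadjusted edgeR p of 0.0178 and was lower in RE at 3 of 3 stages. At 90 dg its log2 ratio was −0.04 with total-count scaling, close to level. The log2 fold change of MYBPC2 was −2.75 without NE90 and −2.75 without RE90, in fits with 1 residual degree of freedom. In each fit the remaining library of that stage is taken up by its own stage term. Both values thus compare the diets at the earlier stages only and are not separate results. Of 10 other settings that did not leave out a single library, 0 gave MYBPC2 an adjusted p under 0.05. TNNC2 took values from −0.43 to 0.46 when 1 library was left out, and CASQ1 from −0.87 to 0.17.

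At single stages the members did not move as a group. At 35 dg TNNC2 and CASQ1 were higher in RE35 and MYBPC2 was lower, with log2 ratios of 0.98 (0.96 to 1.00) for TNNC2, 0.85 (0.67 to 1.05) for CASQ1 and −0.96 (−1.60 to −0.41) for MYBPC2. None passed 2-fold, against a background of 3.91% of genes past 2-fold upward and 9.56% downward. RE35 exceeded NE35 for all 19 shared sarcomere genes (median log2 ratio 1.08, against 0.01 over all genes) and for 6 of 6 slow fiber genes (median 0.73). Of 7 fast fiber genes 5 were higher, and MYBPC2 and PVALB were lower. The summed shared sarcomere level was 13251 CPM in NE35 and 24275 in RE35, the kidney sum was 651 and 6.81 CPM, and a cartilage list summed to 664 and 1960 CPM. The part of this tissue makeup in the member ratios was not tested.

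At 55 dg MYBPC2 was 19.2-fold lower in RE55 than in NE55, a log2 ratio of −4.27 (−4.75 to −3.92) that ranked 2 from the lowest of 12481 genes. On log2(RPKM + 1), which shrinks the ratios of low genes, the MYBPC2 difference was −2.77 here and −0.40 at 35 dg. CASQ1 was 2.27-fold lower, with a log2 ratio of −1.18 (−1.24 to −1.12). TNNC2 was nearly level at −0.056 (−0.066 to −0.046), and its sign turned to 0.072 with the deposited RPKM and to 0.0084 with total-count scaling. So 2 of 3 members were more than 2-fold lower, beside 11.6% of all genes. The shared sarcomere genes had a median of −0.50, with 5 of 19 more than 2-fold lower. Among genes near MYBPC2 in the RefSeq annotation of Sscrofa11.1, those with a measured ratio were not lower in RE55. POLD1, a DNA polymerase subunit, had a log2 ratio of 0.77, JOSD2, a deubiquitinase, 1.73 and NR1H2, a nuclear receptor, 0.06. The direct neighbours SPIB and FAM71E1, and also EMC10 and ASPDH, had no matched row. NAPSA had 1 count in NE55 and 0 in RE55. A fibroblast list summed to 19069 CPM in NE55 and 9945 in RE55 and a cartilage list to 600.5 and 221 CPM. Within the fibroblast list POSTN had 10405 CPM in NE55 and 2172 in RE55. COL3A1 was close between diets, at 4694 and 4794 CPM, as was COL1A2, at 2036 and 1966 CPM. The median log2 ratio of the fibroblast list was −0.22, with 2 of 7 genes more than 2-fold lower. The part of both lists in the member ratios was not tested.

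At 90 dg all 3 members were lower in RE90 and none by more than 2-fold, where 6.98% of genes were lower by that much. The log2 ratios were −0.73 (−0.73 to −0.72) for TNNC2, −0.49 (−0.52 to −0.46) for CASQ1 and −0.37 (−0.44 to −0.30) for MYBPC2. With total-count scaling they were −0.39, −0.16 and −0.04. The last, for MYBPC2, was close to level, at 308 CPM of total counts in NE90 and 299 in RE90. The shared sarcomere genes had a median of 0.02 at 90 dg on the TMM scale. The cartilage list summed to 136 CPM in NE90 and 532 in RE90, and its part was not tested.

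The other genes of fast fibers give the setting for these values. Of 14 listed, 7 had a row that could be matched to a symbol, which left 4 beside the members. The fast myosin heavy chain genes MYH1, MYH2 and MYH4 had no such row, nor had TNNI2, TNNT3, MYLPF and ACTN3, so they were not measured. MYL1 is an essential myosin light chain of fast fibers, MYOZ1 a Z-disc protein, ATP2A1 the calcium pump of the fast sarcoplasmic reticulum and PVALB the calcium buffer parvalbumin. PVALB had 222 counts in NE35 and 0 to 5 in the other libraries, too few for the stage and diet test. It is also made in kidney, and NE35 is the library with kidney transcripts. The source of the PVALB counts was not tested.

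From 35 to 90 dg all 6 fast fiber genes tested rose, with a median log2 fold change of 4.77 against −0.04 over all genes. Markers of other tissues also differed by stage. Of 11 cartilage genes tested 6 fell from 35 to 90 dg (median −2.31) and 4 fell from 35 to 55 dg (median −2.11), and of 5 endothelial genes 2 rose from 35 to 90 dg (median 1.19). Their part in the stage differences was not tested. MYOZ1 rose by 5.66 (edgeR adjusted p = 0.00097), ATP2A1 by 3.89 (edgeR adjusted p = 0.00189) and MYL1 by 3.04 (edgeR adjusted p = 0.0130). Of 6 slow fiber genes tested, from 12 listed, 1 rose and 1 fell: MYBPC1 rose by 3.33 (edgeR adjusted p = 0.00732) and MYH7B, a slow-type myosin heavy chain, fell by 1.44 (edgeR adjusted p = 0.0429). TNNC1 had 0.75 (edgeR adjusted p = 0.588). Of the shared sarcomere genes 13 of 19 rose and 0 fell, with a median of 2.81. From 35 to 55 dg 2 of 6 fast genes rose (CASQ1, and MYOZ1 by 3.99 with an edgeR adjusted p of 0.00792), as did 1 of 6 slow genes and 7 of 19 shared genes. From 55 to 90 dg and between diets none of these genes passed in edgeR.

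CASQ1 works beside the proteins that release calcium, the excitation-contraction coupling machinery. Of 13 of these genes tested, from 18 listed, 9 rose from 35 to 90 dg and 0 fell, with a median log2 fold change of 2.32. SLN, sarcolipin, which inhibits the calcium pump, rose by 5.07 (edgeR adjusted p = 0.00203). BIN1, a membrane-shaping protein of the transverse tubules, rose by 2.32 (edgeR adjusted p = 0.0138). HRC, a calcium-binding protein of the reticulum lumen, rose by 1.93 (edgeR adjusted p = 0.0325). Of 15 transcription regulators tied to fiber type and tested, from 22 listed, 2 rose, MYF6 and MYOD1, by 1.96 (edgeR adjusted p = 0.0230) and 1.47 (edgeR adjusted p = 0.0302).

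Between diets the fast genes differed in a common direction only in part. At 55 dg 5 of 6 measured were lower in RE55 on TMM-scaled CPM, on CPM of total counts and in RPKM, and TNNC2, at −0.056, changed sign with the last 2. The median was −0.65, and MYL1, MYOZ1 and ATP2A1 had log2 ratios of −0.47, −0.47 and −0.84. Slow genes had a median of 1.03, with TNNC1 at 1.33 and MYL3, the slow essential light chain, at 1.63, but MYBPC1 at −0.22 and TNNT1, the slow troponin T, at −0.09. At 90 dg 4 of 6 fast genes were lower in RE90 (median −0.43), while MYL1 was at 0.02 and ATP2A1 at 0.54. Slow genes had a median of −0.98 there, with TNNC1 at −1.73, MYBPC1 at −0.15 and MYH7B at 0.77. So the fast member of the troponin C pair was close to level at 55 dg where the slow one was higher in RE55, and at 90 dg both were lower in RE90.

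**Figure D3:**
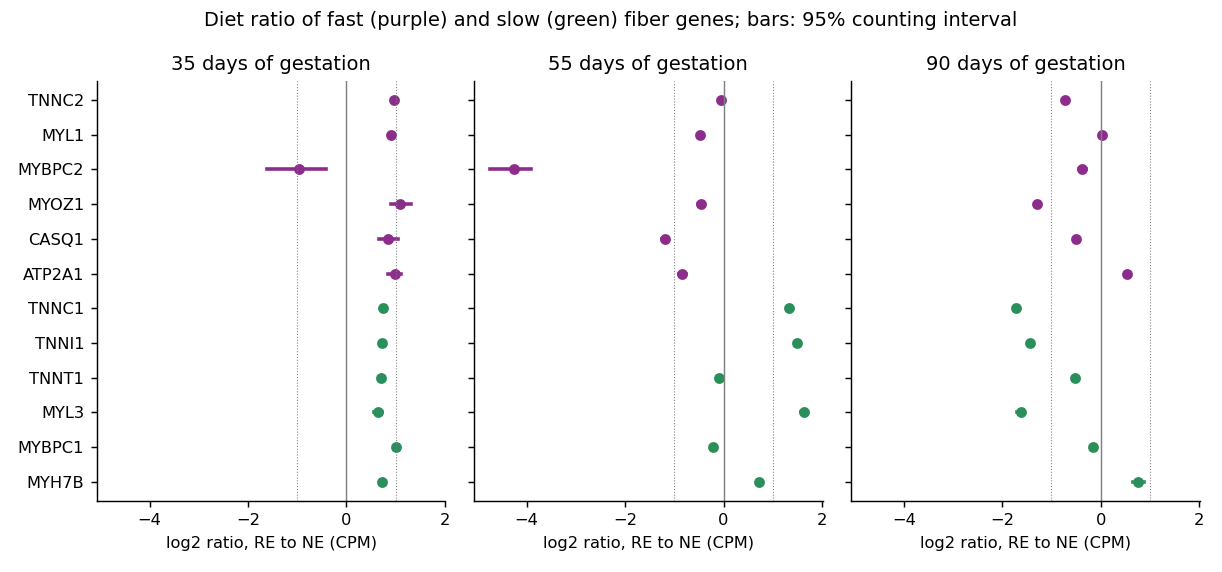
Log2 ratio of RE to NE (x axis, TMM-scaled CPM) at 35, 55 and 90 dg for 6 fast fiber genes (purple) and 6 slow fiber genes (green), with bars for the 95% counting interval, and dotted lines at 2-fold. MYBPC2 at 55 dg (−4.27) stands farthest from 0, and the slow genes TNNC1, TNNI1 (slow troponin I) and MYL3 lie above 1 at 55 dg and below −1 at 90 dg.

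Ratios within a library do not depend on scaling between libraries. The RPKM of TNNC2 was 1.89 times that of TNNC1 in NE and 2.21 times in RE at 35 dg, 10.5 and 4.01 times at 55 dg, and 9.14 and 18.3 times at 90 dg. The fast form of troponin C was thus the more abundant in every library. On the log2 scale the ratio in RE differed from that in NE by 0.22 at 35 dg, −1.39 at 55 dg and 1.00 at 90 dg. At 55 dg that difference lay in TNNC1, with 9036 counts in NE55 and 27653 in RE55. At 90 dg both genes were lower in RE90 and TNNC1 by more, with 27746 counts in NE90 and 9694 in RE90.

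For myosin-binding protein C the slow form was the more abundant throughout. The RPKM of MYBPC1 was 219 times that of MYBPC2 in NE and 875 times in RE at 35 dg, 181 and 3140 times at 55 dg, and 46.7 and 54.5 times at 90 dg. These ratios depend on gene model length, which was 10.1 times that of TNNC2 for MYBPC2 and 4.72 times for MYBPC1. By counts they are smaller, with 85974 for MYBPC1 and 3936 for MYBPC2 in NE90. The ratio of MYBPC2 to MYBPC1 was lower in RE than in NE by a log2 difference of −2.00 at 35 dg, −4.12 at 55 dg and −0.22 at 90 dg. MYBPC1 itself differed little between diets at 55 dg, with 73758 counts in NE55 and 77176 in RE55. MYBPC3, the cardiac form, had 16 to 308 counts and was highest in RE55. A ratio of CASQ1 to CASQ2, the slow and cardiac calsequestrin, was not computed because no row matched CASQ2.

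**Figure D4:**
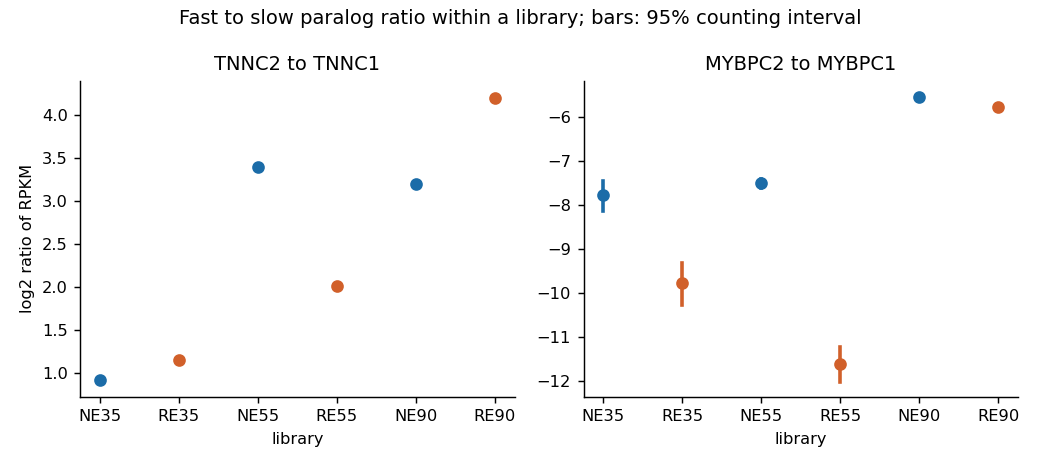
Log2 ratio of RPKM of TNNC2 to TNNC1 and of MYBPC2 to MYBPC1 in each library, NE in blue and RE in orange, with bars for the 95% counting interval. The ratio of TNNC2 to TNNC1 runs from 1.89-fold in NE35 to 18.3-fold in RE90, and that of MYBPC2 to MYBPC1 is lowest in RE55.

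The calcium store can be set against the calcium pump in the same way. CASQ1 to ATP2A1 in RPKM was 0.883 in NE and 0.810 in RE at 35 dg, 3.32 and 2.62 at 55 dg, and 4.396 and 2.15 at 90 dg. CASQ1 was thus above ATP2A1 from 55 dg on. At 35 dg the log2 ratio was −0.30 (−0.44 to −0.17) in RE35, and in NE35 it was −0.18, where the counting interval (−0.36 to 0.0045) includes 0. TNNC2 to MYL1, the thin filament sensor to the light chain, stayed within 1.69 (NE55) and 3.88 (NE90).

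Set against the mean log2 RPKM of the 19 shared sarcomere genes in the same library, the members behaved differently from each other. On this log2 scale TNNC2 lay 5.82 to 6.38 above the mean in 5 libraries and 7.03 above it in NE90. CASQ1 was at −1.51 in NE35 and −1.68 in RE35, at 0.07 in NE55 and −0.52 in RE55, and at 1.61 in NE90 and 1.00 in RE90. MYBPC2 was at −5.69, −4.82 and −2.85 at the 3 stages in NE and at −7.71, −8.57 and −3.35 in RE. Of the 3 members TNNC2 thus varied least against the sarcomere genes, whereas CASQ1 and MYBPC2 were higher relative to them at 90 dg than at 35 dg in both diets. Relative to the list, RE was lower than NE at every stage for MYBPC2 (differences of −2.02, −3.74 and −0.50) and for CASQ1 (−0.17, −0.59 and −0.62). With DES, the muscle intermediate filament gene, as the only reference the CASQ1 differences were −0.01, −1.09 and −0.84. For TNNC2 the difference at 55 dg was 0.53 against the mean and −0.29 against the median of the list, so its sign depended on the reference. Whether the listed genes are used evenly across fiber types was not tested. The list holds TPM1 and TCAP, whose profiles over the libraries were close to that of CASQ1 (Pearson's r of 0.999 and 0.997).

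**Figure D5:**
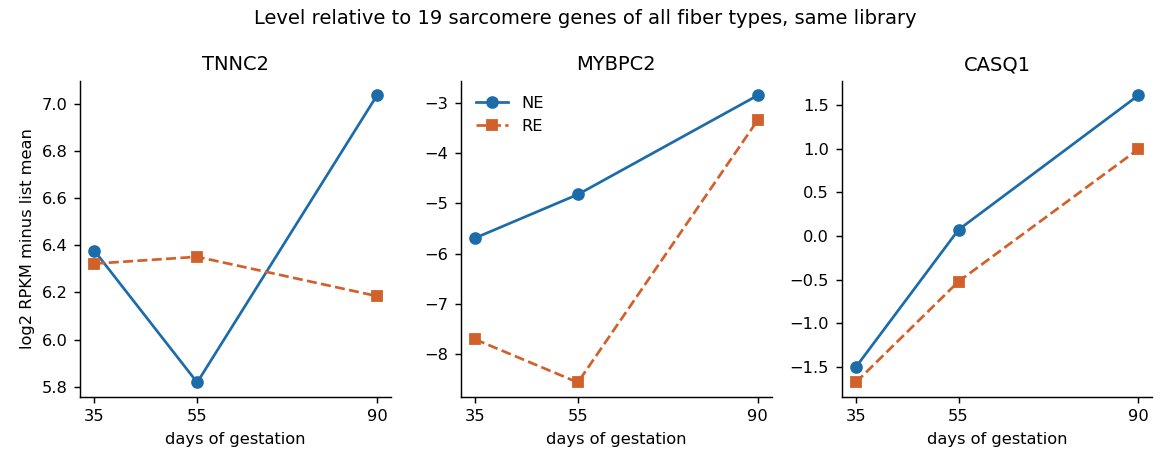
Log2 RPKM of each member minus the mean log2 RPKM of 19 shared sarcomere genes in the same library, against days of gestation, NE as circles and RE as squares. MYBPC2 in RE55 (−8.57) is the lowest point, CASQ1 climbs from −1.51 to 1.61 in NE, and TNNC2 stays between 5.82 and 7.03.

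Other genes with a similar profile were sought by Pearson's r of log2(CPM + 1) over the 6 libraries, among 7784 genes that had a symbol and reached 5 CPM in 1 library or more. The points share stage and scaling, 6 points are few, and r is given as a description only. The 5 most like TNNC2 were TMEM38A, a potassium channel of the sarcoplasmic reticulum (r = 0.999), ENO3, the muscle enolase of glycolysis (0.998), KCMF1, DNAJB5 and MCU, the mitochondrial calcium uniporter (0.994). ENO3 had 909, 9496 and 41933 counts at the 3 stages in NE and 1994, 9203 and 19174 in RE. The 5 most like CASQ1 were TPM1, a tropomyosin (0.999), EHD4, RAMP1, TCAP, the titin cap protein (0.997), and PPP1R3B, a glycogen-targeting phosphatase subunit (0.996). EHD4 had 1637 to 1924 counts in all 6 libraries, and its r was −0.43 on log2(RPKM + 1), so its place depended on the scale.

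The 5 most like MYBPC2 were CDC42EP3 (0.994), RETREG1, LYSMD2, MMUT and FBP2, the muscle fructose bisphosphatase (0.988). FBP2 had 13, 453 and 789 counts at the 3 stages in NE and 0, 4 and 830 in RE. RETREG1, a receptor for turnover of the endoplasmic reticulum, had 457, 1208 and 1733 counts in NE and 297, 445 and 1893 in RE. Both had a level in RE55 near that of the 35 dg libraries, which follows from picking genes by likeness to MYBPC2. MMUT had 169 to 310 counts in all 6 libraries and an r of 0.88 on log2(RPKM + 1). Over all genes compared, 82 had an r above 0.95 with MYBPC2. Between members r was 0.98 for TNNC2 with CASQ1, 0.90 for CASQ1 with MYBPC2 and 0.82 for TNNC2 with MYBPC2. With the slow gene TNNC1 it was 0.45 for TNNC2, 0.28 for CASQ1 and 0.03 for MYBPC2. With the slow gene MYBPC1 it was 0.95 for TNNC2, 0.95 for CASQ1 and 0.73 for MYBPC2, so slow genes differed among themselves.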

How the data were processed

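The authors trimmed the reads with FASTX-Toolkit, mapped them to Sscrofa10.2 using TopHat2 and dropped those that hit several places. They deposited raw counts for each gene as well as RPKM with 2 decimals. The counting tool, the annotation release and strand are not given in the sources used here. The RefSeq annotation of Sscrofa11.1 places an unnamed locus over TNNC2, whose reads could not be told apart. The table heads call the restricted diet SE, which was read as RE. Symbols were found for 11010 of 19158 identifiers. Small RNA files were not used.

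Software was edgeR 4.0.16, DESeq2 1.42.0 and limma 3.58.1 under R 4.3.3, and scipy 1.17.1, pandas 2.3.3, numpy 2.4.6 and matplotlib 3.10.9 under Python 3.11.15. The test used TMM, genes that reached 1 CPM in 2 or more libraries, and Benjamini-Hochberg adjusted p under 0.05. The SE is the log2 fold change divided by the root of F. Pairs of libraries were compared on CPM with a prior count of 2, for genes that reached 1 CPM in either, with exact conditional binomial 95% intervals. The level against the sarcomere list used log2(RPKM + 0.1) for the list. Each condition has 1 library, so such ratios have no replicate check and no p-value. The test was also run on counts simulated with dispersions estimated from these libraries. Such a run cannot show whether the 2 diets stand in well as replicates of a stage. Named genes are the members, their paralogs, fast fiber genes with a row, the 5 most alike per member and up to 3 of the highest per other list, with further slow genes, the regulators that passed and neighbouring genes added after their values were seen. Members and lists were chosen with earlier results of these data known. Alternatives covered scaling, filter, test, prior count, covariate and libraries left out.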

Additional observations from a re-analysis of the deposited data

Results flagged for a closer look

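For 2 of the 3 genes the diet ratio took opposite signs at different stages. TNNC2 had an RE to NE log2 ratio of 0.98 at 35 dg, −0.056 at 55 dg and −0.73 at 90 dg. CASQ1 had 0.85 at 35 dg, −1.18 at 55 dg and −0.49 at 90 dg. The differences between stages were not tested, because each ratio compares 1 library with 1 other. The positive ratios rest on NE35, in which the kidney list summed to 651 CPM and the shared sarcomere list to 13251 CPM against 24275 in RE35, and the part of these values was not tested. For TNNC2 the sign at 55 dg turned with the deposited RPKM (0.072). MYBPC2 was lower in RE at all 3 stages, though at 90 dg its log2 ratio was only −0.04 with total-count scaling.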

How the results depend on the processing

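For the stage and diet tests all values below are log2 fold changes with an edgeR adjusted p unless another tool is named. From 35 to 55 dg MYBPC2 passed with no filter on low counts (2.75, adjusted p 0.00113) and with stage alone, without diet (3.36, adjusted p 0.0434). From 55 to 90 dg MYBPC2 (3.91, adjusted p 0.000213) and CASQ1 (2.14, adjusted p 0.0305) passed with no filter, and CASQ1 passed in DESeq2 (2.19, adjusted p 0.00367). From 35 to 90 dg TNNC2 did not pass in DESeq2 (3.18, adjusted p 0.0829) or in limma on log2(RPKM + 1) (2.72, adjusted p 0.0717). The cause was not tested. Without the replicate block, that is with diet alone, the diet value of TNNC2 turned to −0.41, as it did without the 35 dg libraries (−0.41), while CASQ1 turned to 0.15 without the 55 dg libraries. Numbers do not pair animals here, since each condition has 1 library and stage was the block. With total counts only, 1 member, MYBPC2, was more than 2-fold lower in RE35.

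When 1 library was left out, values from 35 to 55 dg ran from 1.27 to 2.66 for TNNC2, 0.36 to 4.04 for MYBPC2 and 2.73 to 4.45 for CASQ1. From 55 to 90 dg they ran from 0.60 to 1.78, 2.50 to 6.13 and 1.63 to 2.93, and from 35 to 90 dg from 2.51 to 3.91, 5.21 to 7.59 and 4.98 to 6.71. For diet they ran from −0.43 to 0.46, −2.75 to −0.63 and −0.87 to 0.17. TNNC2 passed from 35 to 55 dg without NE90 (adjusted p 0.00379) or RE90 (0.00257), and CASQ1 from 55 to 90 dg without NE55 (0.0118) or RE90 (0.0449). The lone sample of a stage is assumed there to vary like the others. The TNNC2 diet sign turned without NE35 (−0.41) or RE35 (−0.43), and that of CASQ1 without NE55 (0.17) or RE55 (0.15).

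Genes called from 35 to 55 dg ranged from 37 to 868 higher and 30 to 562 lower over all alternatives, from 35 to 90 dg from 173 to 1188 higher and 87 to 1202 lower, from 55 to 90 dg from 0 to 139 higher and 0 to 173 lower, and between diets from 0 to 21 higher and 0 to 64 lower. Of the 5 genes most like each member, 3 for TNNC2, 2 for MYBPC2 and 3 for CASQ1 were also among the 5 on log2(RPKM + 1). The ratio of CASQ1 to CASQ2 was not run because CASQ2 had no matched row. Low counts (37 to 77) limit MYBPC2 at 35 dg and in RE55.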
